A study of Mus musculus with 12 samples.

Results

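The genes described here were 10 members of the NF-κB system. They comprised the 5 subunit genes Nfkb1, Nfkb2, Rela, Relb and Rel, the 3 inhibitor genes Nfkbia, Nfkbib and Nfkbie, the gene of the nuclear inhibitor-like protein Nfkbiz, and Tnfaip3. They were selected by symbol among the 54532 genes of the deposited count table, and all 10 passed the low-count filter in every comparison. Bulk RNA sequencing was done on fetal mouse ovaries collected at E15.5 (E, embryonic day). The embryos carried the transgene Tg(Pou5f1-EGFP)2Mnn, in which Pou5f1 (OCT4) regulatory sequence drives a green fluorescent protein (GFP), a marker of germ cells. Dams were dosed intraperitoneally each day, first at E12.5 and last at E15.5, either with dexamethasone (dex, a synthetic glucocorticoid) at 10 µg per g of weight or with saline of the same volume. Cell sorting then separated GFP-positive germ cells from GFP-negative somatic cells (soma), which gave 4 groups of 3 replicate libraries, namely dex germ cells, saline germ cells, dex soma and saline soma. Embryos of all 4 groups were female and of the same transgenic strain. Each library pooled the ovaries of several litters, so a replicate was a pool and not 1 embryo, and the GFP-negative fraction was a mixture of every ovarian cell type other than germ cells.

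NF-κB is a family of dimeric transcription factors that inhibitor proteins of the IκB family hold in the cytoplasm. Signals from receptors for cytokines such as TNF and interleukin-1 activate the IκB kinase, which marks the inhibitors for destruction and frees the dimers to enter the nucleus, where they switch on inflammatory genes and also the genes of their own inhibitors. Glucocorticoids are used to restrain inflammation, and the glucocorticoid receptor is known both to oppose NF-κB in the nucleus and to raise Nfkbia in several immune cell types.

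The libraries held 14658503 to 18245507 counts. Levels are given in CPM (the usual depth-scaled count, with library totals adjusted by TMM factors) as mean ± SD over 3 libraries, and 3 counts in a library corresponded to 0.169 to 0.201 CPM. Fold changes, their standard errors (SE) and adjusted p-values come from the quasi-likelihood test of edgeR with Benjamini-Hochberg adjustment over all genes tested, and a gene was called at an adjusted p of at most 0.05. The summed level of 10 germ cell markers was 5640 to 6590 CPM in the germ cell libraries and 49.1 to 80.3 CPM in soma, and that of 14 general somatic markers was 473 to 730 CPM in germ cells and 26700 to 33200 CPM in soma. Per1, a glucocorticoid-induced clock gene, served as a reference for exposure and rose in both cell types, from 14.3 ± 1.27 to 53.7 ± 12.6 CPM in germ cells (edgeR adjusted p = 0.000906) and from 82.9 ± 6.19 to 267 ± 37.1 CPM in soma (edgeR adjusted p = 2.24e-07). The co-chaperone gene Fkbp5 and Tsc22d3, which encodes the glucocorticoid-induced leucine zipper protein, were called in soma, with log2 fold changes of 1.29 and 1.08. In germ cells Fkbp5 had a log2 fold change of 0.33 and Tsc22d3 one of -0.038, and neither was called.

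After dex, 1 of the 10 genes was called in each cell type, and it was a different gene. In germ cells Nfkbia was 1.98-fold higher, and in soma Nfkbiz was 0.654-fold its saline level. The background in germ cells was 0.208% of the 16857 genes tested, or 0.089% counting rises only, and in soma it was 8.18% of 16556 genes, or 3.36% counting falls only. In the test of the difference between the 2 dex responses Nfkbia was again the single gene called of the 10, against 1.62% of 19390 genes, or 0.49% counting positive differences only. The median log2 fold change of the 10 genes was -0.082 in germ cells and -0.039 in soma, against 0.014 and 0.00014 over all genes tested. The saline and dex libraries did not overlap for 3 of the 10 genes in germ cells, namely Rela, Nfkbia and Tnfaip3, where 17.4% of all genes tested showed the same separation. In soma this held for 4 of the 10, namely Nfkb1, Nfkbie, Nfkbiz and Tnfaip3, against 25.4% of all genes. In bulk samples of this kind, fewer cells of a type that expresses a gene cannot be told apart from less RNA of that gene per cell.

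**Figure D1:**
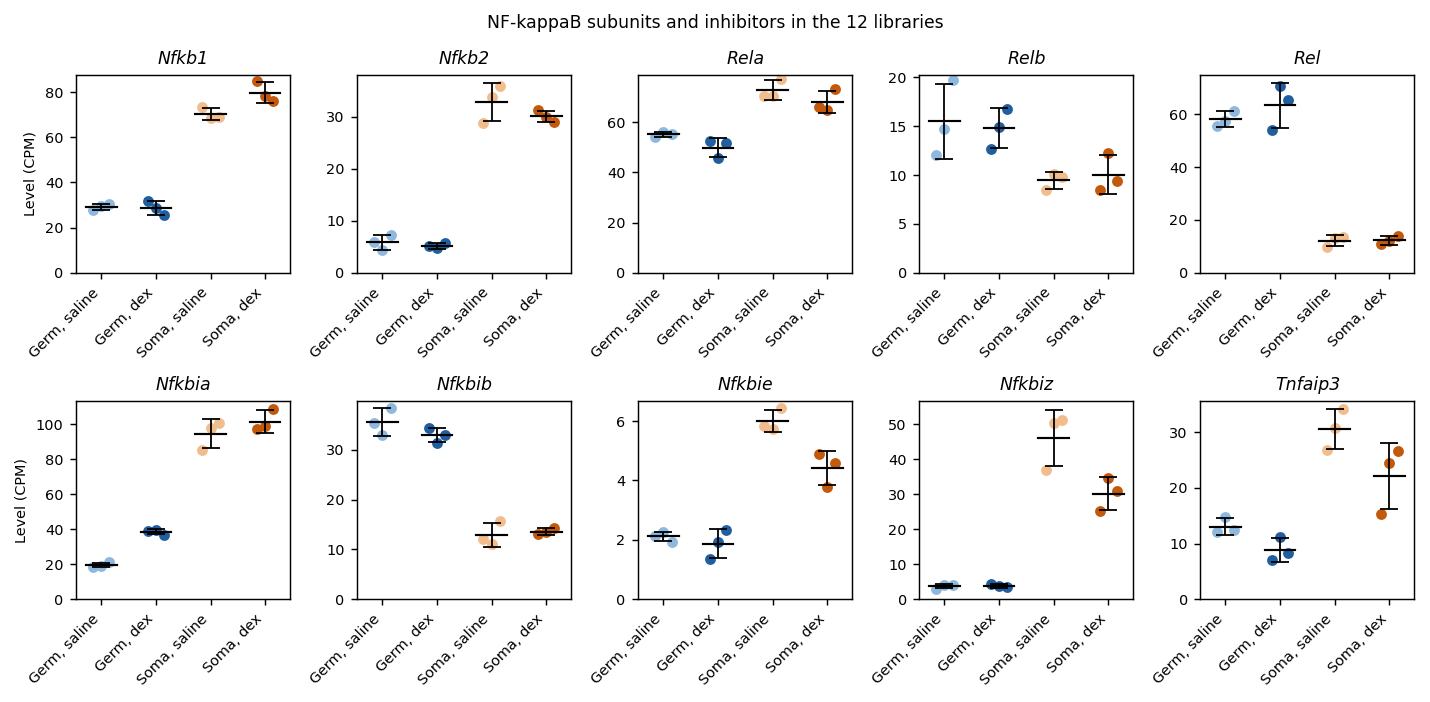
Each panel plots the level of 1 gene in CPM on the vertical axis for the 12 libraries, with points for single libraries, a horizontal line for the mean of 3 libraries and error bars of 1 SD. The dex germ cell libraries of Nfkbia (37.0 to 39.8 CPM) all lie above the saline ones (18.7 to 21.2 CPM), and the dex somatic libraries of Nfkbiz (25.1 to 34.6 CPM) all lie below the saline ones (36.8 to 51.1 CPM).

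**Figure D2:**
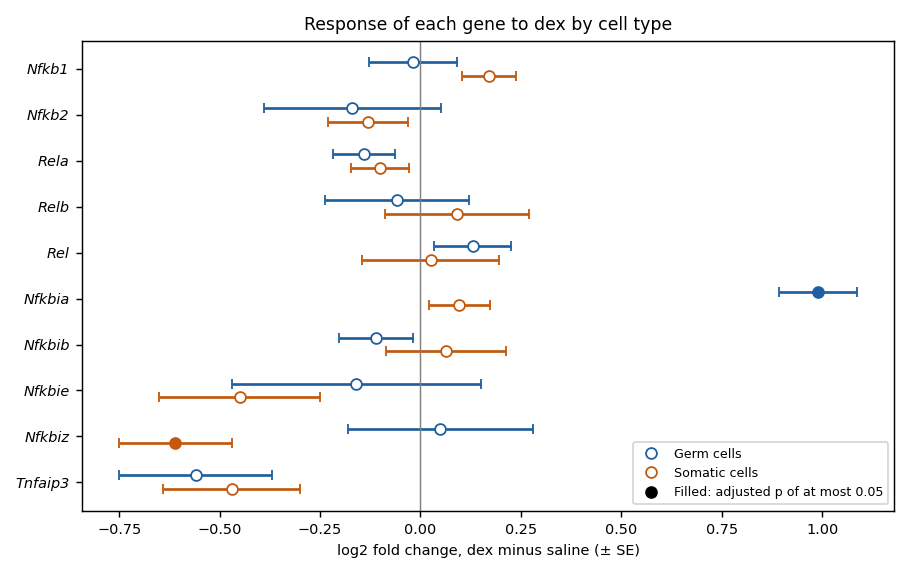
Points give the log2 fold change of dex against saline on the horizontal axis for each of the 10 genes, in germ cells (blue) and somatic cells (orange), with bars of 1 SE, and filled points mark an edgeR adjusted p of at most 0.05. The filled points are Nfkbia in germ cells at 0.99 and Nfkbiz in somatic cells at -0.61.

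In the saline libraries, germ cells and soma held these genes at different levels. All 10 were called between the cell types, against 86.1% of the 17941 genes tested, and in all 10 the libraries of the cell types did not overlap, against 87.1% of genes. Higher levels in germ cells were found for 3 genes (Rel, Nfkbib and Relb) against 43.1% of all genes, and lower levels for 7 against 42.9%. The median log2 fold change of the 10 genes was -1.24, against 0.0047 over all genes tested, and single genes ran from 4.83-fold higher in germ cells for Rel to 0.0807-fold for Nfkbiz. The same saline libraries were the controls of the dex comparisons.

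**Figure D3:**
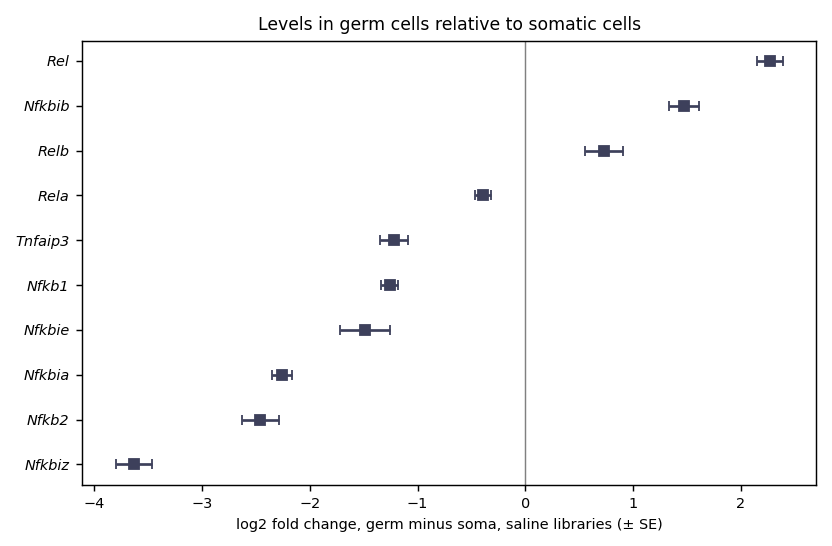
Squares give the log2 fold change of germ cells against somatic cells in the saline libraries on the horizontal axis, with bars of 1 SE, for the 10 genes sorted by that value. Rel, Nfkbib and Relb lie to the right of 0 and the other 7 genes to the left, with Nfkbiz at -3.63.

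Among the subunits, Rela encodes p65, the main transactivating subunit. Rela (ENSMUSG00000024927, chr19:5637483-5648130 of GRCm38, plus strand) measured 54.2, 56.2 and 55.2 CPM in the saline germ cell libraries against 52.4, 45.6 and 51.5 CPM in the dex ones. In soma it was at 70.4, 70.5 and 77.3 CPM after saline and at 66.0, 64.7 and 73.0 CPM after dex. The dex germ cell libraries lay just below the saline ones and the somatic groups overlapped. The log2 fold change after dex was -0.14 (SE 0.077, edgeR adjusted p = 0.523) in germ cells and -0.10 (SE 0.072, edgeR adjusted p = 0.465) in soma, so the gene was called in neither. Between the cell types Rela had the smallest difference of the 10 genes, at a log2 fold change of -0.39 for germ cells against soma.

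Rel encodes c-Rel, a transactivating subunit best known from lymphocytes. It was the subunit most enriched in germ cells. Rel (ENSMUSG00000020275, chr11:23736847-23770970, minus strand) measured 55.4, 57.6 and 61.3 CPM in the saline germ cell libraries against 9.69, 13.2 and 13.5 CPM in saline soma. Every germ cell library lay above every somatic library, with a log2 fold change of 2.27 (SE 0.12, edgeR adjusted p = 1.55e-10). After dex Rel was at 54.1, 70.7 and 65.4 CPM in germ cells and at 10.8, 12.2 and 14.1 CPM in soma. Dex and saline libraries overlapped in both cell types, with log2 fold changes of 0.13 (edgeR adjusted p = 0.63) and 0.025 (edgeR adjusted p = 0.955). Relb encodes the subunit that pairs with p52 in the non-canonical pathway. Relb (ENSMUSG00000002983, chr7:19606217-19629438, minus strand) measured 12.1, 14.7 and 19.7 CPM in the saline germ cell libraries against 8.43, 10.1 and 9.83 CPM in saline soma, a log2 fold change of 0.73 (SE 0.18, edgeR adjusted p = 0.00192). Its levels after dex were 12.7, 14.9 and 16.8 CPM in germ cells and 8.46, 12.3 and 9.39 CPM in soma. These ranges overlapped those after saline in both cell types.

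Nfkb1 and Nfkb2 encode the precursors of p50 and p52, subunits that bind DNA but lack a transactivation domain, and both were lower in germ cells than in soma. Nfkb1 (ENSMUSG00000028163, chr3:135584655-135691547, minus strand) measured 27.7, 29.6 and 30.5 CPM in the saline germ cell libraries against 73.4, 68.7 and 69.0 CPM in saline soma, a log2 fold change of -1.26 (SE 0.082, edgeR adjusted p = 1.41e-09). After dex it was at 31.9, 28.6 and 25.7 CPM in germ cells and at 84.8, 78.2 and 75.9 CPM in soma. The somatic dex libraries all lay above the saline ones, with a log2 fold change of 0.17 (SE 0.067) that did not pass the threshold (edgeR adjusted p = 0.152). Nfkb2 (ENSMUSG00000025225, chr19:46304737-46312090, plus strand) measured 5.88, 4.49 and 7.37 CPM in the saline germ cell libraries against 28.7, 33.8 and 35.9 CPM in saline soma, a log2 fold change of -2.46 (SE 0.17, edgeR adjusted p = 2.79e-09). After dex it was at 5.09, 4.72 and 5.83 CPM in germ cells and at 31.2, 30 and 29.0 CPM in soma. Both dex ranges overlapped the saline ranges. In the deposited annotation Nfkb1 overlaps the unclassified gene Gm43430 on the same strand, Nfkb2 overlaps Psd on the opposite strand and Nfkbib overlaps Sirt2 and Ccer2 on the opposite strand, and no source used here gives the strand setting, so reads in the shared stretches cannot be assigned with certainty.

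Nfkbia encodes IκBα, the inhibitor that NF-κB itself induces and that ends a signalling pulse. In germ cells it rose after dex. Nfkbia (ENSMUSG00000021025, chr12:55489410-55492647, minus strand) was at 18.7, 18.9 and 21.2 CPM in the 3 saline germ cell libraries and at 39.0, 39.8 and 37.0 CPM after dex, which corresponds to 289, 324 and 371 counts against 583, 615 and 635. All 3 dex libraries lay far above the saline range, and the spread within each group was small, with an SD of 1.40 CPM after saline and 1.42 CPM after dex. The log2 fold change was 0.99 (SE 0.098, edgeR adjusted p = 0.00133), and by its p-value the gene ranked 4 of the 16857 tested. Leaving out any 1 library kept the log2 fold change between 0.95 and 1.04 with the gene called in each of these fits (edgeR adjusted p of 0.00271 to 0.0136).

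In soma Nfkbia was at 85.5, 98.0 and 101 CPM after saline and at 97.2, 98.9 and 109 CPM after dex. The groups overlapped, and the log2 fold change of 0.097 (SE 0.075) was not called (edgeR adjusted p = 0.524). The response of germ cells exceeded that of soma by 0.88 on the log2 scale (SE 0.12, edgeR adjusted p = 0.000865). Saline germ cells held Nfkbia at 20.7% of the somatic level in CPM, and dex germ cells at 38.0%. The rise in germ cells amounted to 19.0 CPM, or 18.7% of the level in dex soma. For comparison, the median of the 14 general somatic markers in a germ cell library was 0.842% to 2.26% of the level in soma of the same treatment after dex, and 1.04% to 1.55% after saline. Of the narrower marker lists, pregranulosa genes gave medians of 3.45% to 15.6% after dex and 4.43% to 8.95% after saline, and macrophage genes 7.60% to 14.8% after dex and 3.49% to 6.66% after saline. The somatic level used as the denominator was itself lower after dex for macrophage genes, with sums of 82.4 to 178 CPM against 252 to 318 CPM after saline. The summed level of the 14 macrophage markers in germ cells overlapped between treatments, at 38.3 to 52.9 CPM after dex and 37.3 to 46.5 CPM after saline, with none of the 14 at 0 in every library of a group. The part of carried-over somatic RNA in the Nfkbia level was not tested further.

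RefSeq start-site windows (build GRCm38.p6) were found for 7 of the 10 genes, and the 250 bases before each annotated start were searched for the κB consensus, the NF-κB binding motif of 10 letters, on both strands, with overlapping matches counted. A match was present in 7 of the 10 windows of these genes, and in 5 of the 7 genes (Nfkb2, Rel, Nfkbia, Nfkbie and Tnfaip3), whereas 7.25% of 32851 windows of the same length genome-wide held one. Nfkb1, Relb and Nfkbiz were the genes with no entry. The glucocorticoid receptor half-site AGAACA, with its reverse complement TGTTCT, was found in 1 of the 10 windows, a second annotated start of Tnfaip3, against 16.1% genome-wide. Windows are shown for Nfkbia, the gene called in germ cells, for its relative Nfkbib, which was not called, and for Tnfaip3. These windows let the sequence before the RefSeq starts be compared. They are written 5′ to 3′ on the strand of the gene, and capitals mark κB consensus matches. The Nfkbia window is chr12:55492648-55492897, minus strand, with a match that begins 29 bases before the start. The Nfkbib window is chr7:28766645-28766894, minus strand, with no match. The Tnfaip3 window is chr10:19015411-19015660, minus strand, with matches that begin 125 and 12 bases before the start. In the deposited annotation the Nfkbib gene reaches to 28767512 and the Tnfaip3 gene to 19015657. The Nfkbib window thus lies wholly inside the counted gene and the Tnfaip3 window almost wholly, while the Nfkbia window lies outside it.
Nfkbia: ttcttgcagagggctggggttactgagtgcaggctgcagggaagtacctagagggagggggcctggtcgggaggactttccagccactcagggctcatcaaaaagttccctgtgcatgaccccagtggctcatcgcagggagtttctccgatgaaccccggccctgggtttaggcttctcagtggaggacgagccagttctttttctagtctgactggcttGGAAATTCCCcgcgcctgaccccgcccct
Nfkbib: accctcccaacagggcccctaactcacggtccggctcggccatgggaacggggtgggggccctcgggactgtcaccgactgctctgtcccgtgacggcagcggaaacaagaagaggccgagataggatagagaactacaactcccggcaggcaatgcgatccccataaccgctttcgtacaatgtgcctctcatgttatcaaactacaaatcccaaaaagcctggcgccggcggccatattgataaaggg
Tnfaip3: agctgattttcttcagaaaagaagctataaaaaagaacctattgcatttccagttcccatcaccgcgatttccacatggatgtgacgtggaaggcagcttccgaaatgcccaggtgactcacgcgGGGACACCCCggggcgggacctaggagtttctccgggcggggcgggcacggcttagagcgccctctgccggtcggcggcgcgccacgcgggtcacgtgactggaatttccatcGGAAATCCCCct
A match is a description of the letters in these windows and not a measured binding site.

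Nfkbib and Nfkbie encode IκBβ and IκBε, the other classical inhibitors, and neither was called after dex in either cell type. Nfkbib (ENSMUSG00000030595, chr7:28758251-28767512, minus strand) measured 35.4, 32.9 and 38.4 CPM in the saline germ cell libraries against 12, 11.1 and 15.7 CPM in saline soma. It was the only inhibitor gene of the 3 that was higher in germ cells, with a log2 fold change of 1.47 (SE 0.14, edgeR adjusted p = 9.35e-08). After dex it was at 34.3, 31.4 and 33.0 CPM in germ cells and at 13.0, 13.4 and 14.3 CPM in soma. These values overlapped those after saline, and the log2 fold change was -0.11 (edgeR adjusted p = 0.694) in germ cells and 0.064 (edgeR adjusted p = 0.86) in soma. Nfkbie (ENSMUSG00000023947, chr17:45555703-45563169, plus strand) was low throughout, with 2.13, 2.27 and 1.94 CPM in the saline germ cell libraries against 1.34, 1.94 and 2.33 CPM in the dex ones, or 20 to 40 counts per library. In soma it was at 5.85, 5.74 and 6.43 CPM after saline and at 4.89, 3.77 and 4.58 CPM after dex. The dex somatic libraries all lay below the saline ones, with a log2 fold change of -0.45 (SE 0.20) that was not called (edgeR adjusted p = 0.222).

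Nfkbiz encodes IκBζ, a nuclear protein of the IκB family that works with NF-κB on a subset of inflammatory genes such as Lcn2. In soma it fell after dex. Nfkbiz (ENSMUSG00000035356, chr16:55811375-55838899, minus strand) was at 36.8, 50.3 and 51.1 CPM in saline soma and at 25.1, 34.6 and 30.8 CPM in dex soma. The groups did not overlap, but the gap between the highest dex and the lowest saline library was narrow. The log2 fold change was -0.61 (SE 0.14, edgeR adjusted p = 0.0155). The call was lost without soma dex replicate 1 (log2 fold change -0.49, edgeR adjusted p = 0.0507), without soma saline replicate 2 (-0.54, edgeR adjusted p = 0.0806) and without soma saline replicate 3 (-0.53, edgeR adjusted p = 0.0945). In germ cells Nfkbiz was at 2.97, 3.91 and 4.11 CPM after saline and at 4.29, 3.68 and 3.38 CPM after dex, and the ranges overlapped, with a log2 fold change of 0.049 (edgeR adjusted p = 0.956). The difference between the dex responses of germ cells and soma was 0.65 on the log2 scale and was not called (edgeR adjusted p = 0.24), so a fall particular to soma was not shown.

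Macrophage markers moved with Nfkbiz in soma. Of 14 macrophage markers, 7 were called lower after dex (Adgre1, Cx3cr1, Csf1r, Mrc1, Tyrobp, Lyz2 and Cd68), none higher, and the median log2 fold change of the 14 was -0.86. Their summed level was 252, 300 and 318 CPM in the saline somatic libraries and 82.4, 178 and 169 CPM in the dex somatic libraries, and none of the 14 was at 0. The libraries with the lowest summed marker level of each group, soma dex replicate 1 and soma saline replicate 1, were also those with the lowest Nfkbiz. Endothelial markers were called lower for 3 of 10 and higher for 1, with sums of 329 to 371 CPM after dex and 367 to 441 CPM after saline. The part of these cell types in the Nfkbiz level was not tested.

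Tnfaip3 encodes A20, a ubiquitin-editing enzyme that shuts off signalling upstream of the IκB kinase and is itself an NF-κB target. Tnfaip3 (ENSMUSG00000019850, chr10:19000910-19015657, minus strand) measured 12, 14.8 and 12.4 CPM in the saline germ cell libraries against 7.03, 11.2 and 8.22 CPM in the dex ones. In soma it was at 26.9, 30.8 and 34.2 CPM after saline and at 15.4, 24.4 and 26.6 CPM after dex. In both cell types every dex library lay below every saline library, by a margin of less than 1 CPM between the nearest libraries. The log2 fold change was -0.56 (SE 0.19, edgeR adjusted p = 0.301) in germ cells and -0.47 (SE 0.17, edgeR adjusted p = 0.122) in soma, and neither was called. The somatic value depended on single libraries. Without soma dex replicate 1, the library lowest in macrophage markers, it was -0.27 (edgeR adjusted p = 0.258), and without soma dex replicate 3 it was -0.62 and the gene was called (edgeR adjusted p = 0.0186). The macrophage marker sums given for Nfkbiz apply to the same libraries, and their part in the Tnfaip3 level was not tested.

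Levels of different genes were compared on the deposited FPKM scale, which divides by gene length. The annotated lengths ran from 1610 bases for Nfkbia to 12061 for Nfkb1, and the order depends on them. In saline soma Nfkb1 was above Nfkb2 in CPM (70.4 against 32.8) but below it in FPKM (5.66 against 9.68). In saline germ cells the order of mean FPKM was Rela (20.5), Nfkbib (16.6), Nfkbia (12.3), Rel (7.86), Relb (4.03), Nfkb1 (2.45), Tnfaip3 (1.83), Nfkb2 (1.82), Nfkbiz (0.738) and Nfkbie (0.702). Neighbours in this order did not overlap, except Tnfaip3 with Nfkb2 and Nfkbiz with Nfkbie. After dex Nfkbia headed the germ cell order, at 24.0 FPKM against 18.3 for Rela and 15.2 for Nfkbib, with no overlap between these neighbours. In saline soma Nfkbia was first at 57.1 FPKM, followed by Rela at 26.0, Nfkb2 at 9.68 and Nfkbiz at 8.90, the last pair overlapping. Rel was at the end of the saline somatic order at 1.58 FPKM.

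The make-up of the subunit pool was described by FPKM, and its shares and ratios depend on the annotated gene lengths too. Rela held 56.1% ± 2.66 of the summed FPKM of the 5 subunits in saline germ cells and 57.4% ± 1.26 in saline soma. Rel held 21.4% in saline germ cells (21.4% to 21.5% in single libraries) against 3.47% ± 0.469 in saline soma, and Nfkb2 4.93% ± 1.05 against 21.4% ± 1.36. After dex Rel held 24.5% ± 3.30 in germ cells and 3.68% ± 0.41 in soma. Among the 3 inhibitors, Nfkbia held 41.6% ± 0.971 of the summed FPKM in saline germ cells and 60.3% ± 1.54 after dex, while Nfkbib went from 56.0% ± 1.06 to 38.1% ± 1.5. In soma Nfkbia held 88.1% ± 1.40 after saline and 89.1% ± 0.265 after dex. The ratio of Nfkbia to Rela FPKM was 0.581, 0.567 and 0.648 in saline germ cells and 1.26, 1.47 and 1.21 after dex, so it was below 1 in each saline library and above 1 in each dex library. In soma the ratio was 2.05, 2.34 and 2.19 after saline and 2.48, 2.58 and 2.51 after dex. These shares and ratios describe RNA and were not tested, since they combine genes with known results.

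**Figure D4:**
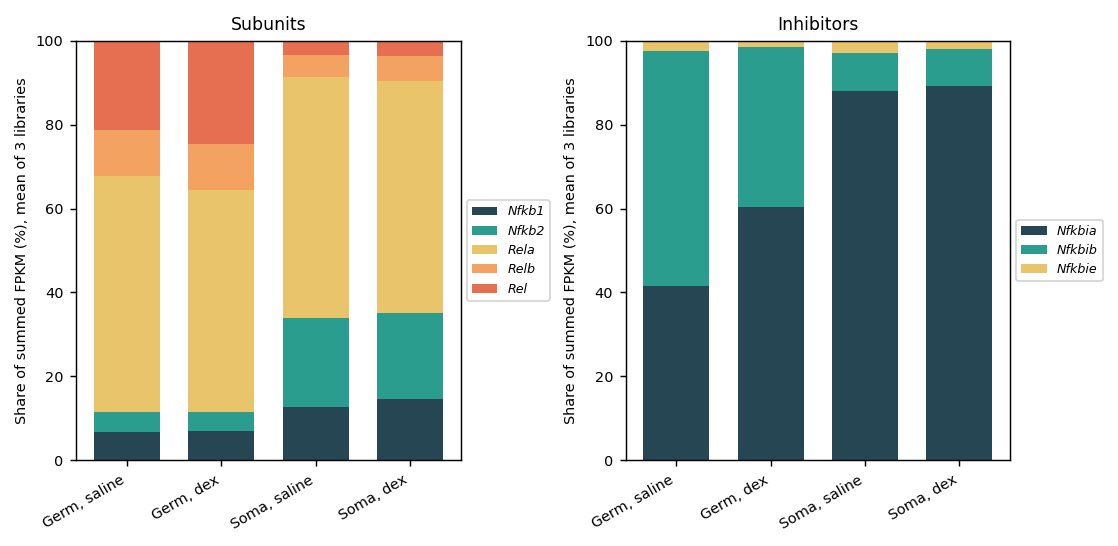
Stacked bars give the mean share of each gene in the summed FPKM of the 5 subunits (left) and of the 3 inhibitors (right), in percent on the vertical axis, for the 4 groups of 3 libraries. The shares depend on the annotated gene lengths by which FPKM divides. Rel takes a larger share of the subunits in germ cells (21.4% after saline) than in soma (3.47%), and Nfkbia takes 41.6% of the inhibitors in saline germ cells and 60.3% in dex germ cells.

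The remaining pathway was followed in 5 lists, written with earlier results of these data known, so shares of called genes are description only. The lists held 105 genes. In germ cells 75 of these were tested and none was called by edgeR, and none by DESeq2. At an unadjusted p under 0.05 there were 10 of the 75, against 11.6% of all genes tested in germ cells. Their median log2 fold change was 0.048, against 0.014 over all genes tested. In soma 15 of 92 tested genes were called, or 16.3% of the lists against 8.18% of all genes, with 4 higher and 11 lower, where falls made up 3.36% of all genes. The somatic median of the 92 was -0.057 on the log2 scale, against 0.00014 over all genes tested. Without soma saline replicate 2 the somatic count was 9, and without soma saline replicate 3 it was 7. By list, the somatic calls were 1 of 6 other inhibitor-like genes, 1 of 25 kinases and activators, 1 of 17 negative regulators, 7 of 22 receptors and ligands and 5 of 22 NF-κB targets.

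Among the other inhibitor-like genes, Nfkbid, which encodes the nuclear protein IκBNS, fell in soma, from 8.42 ± 1.37 to 4.17 ± 1.32 CPM, or -1.01 on the log2 scale (SE 0.25, edgeR adjusted p = 0.0216). Its levels in single somatic libraries were 7.55, 9.99 and 7.70 CPM after saline and 2.66, 4.73 and 5.11 CPM after dex, with no overlap. Traf3, an adaptor that restrains the non-canonical pathway, fell slightly from 58.8 ± 1.41 to 46.9 ± 4.59 CPM, or -0.33 on the log2 scale (edgeR adjusted p = 0.0206). Tax1bp1, a partner of A20, rose from 131 ± 5 to 163 ± 6.17 CPM, or 0.31 on the log2 scale (edgeR adjusted p = 0.00653). For Tax1bp1 the dex response also differed between the cell types, by -0.45 on the log2 scale (edgeR adjusted p = 0.0149).

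Of the ligands and receptors, the cytokine gene Il33 rose in soma from 32.5 ± 2.38 to 99.6 ± 16.7 CPM, or 1.61 on the log2 scale (edgeR adjusted p = 9.97e-07). The other 6 called genes of that list fell. Tnf went from 10.0, 17.9 and 19.5 CPM after saline to 3.14, 7.49 and 9.27 CPM after dex (log2 fold change -1.25, edgeR adjusted p = 0.0273), and Il1b, which encodes interleukin-1β, from 7.36, 9.35 and 8.43 to 1.63, 4.17 and 3.39 CPM, or -1.45 on the log2 scale (edgeR adjusted p = 0.00598). Soma dex replicate 1, the library with the lowest macrophage marker sum, was the lowest for both. The remaining falls were those of the pattern recognition receptor genes Tlr1 (log2 fold change -3.35), Tlr4 (-1.32) and Tlr2 (-0.88) and of Tnfrsf11a, the gene of the RANK receptor (-1.18). Tlr1 had 46, 33 and 49 counts in saline soma and 8, 1 and 4 counts in dex soma. The dex values lie around the floor of 3 counts, so the size of its fall is uncertain. Of the called targets, 2 rose and 3 fell. The transcription factor gene Cebpd rose from 16.0 ± 1.11 to 76.7 ± 11.5 CPM, or 2.25 on the log2 scale (edgeR adjusted p = 6.65e-08) and the prostaglandin synthase gene Ptgs2 from 4.59 ± 1.15 to 10.2 ± 1.13 CPM, or 1.15 on the log2 scale (edgeR adjusted p = 0.00375). The adhesion molecule gene Icam1 (log2 fold change -0.65), the surface protein gene Cd83 (-0.89) and the chemokine gene Cxcl2 (-1.18) fell. Among the dex somatic libraries, replicate 1 was also the lowest for Icam1 (14.7 CPM), Cd83 (11.8 CPM) and Cxcl2 (4.11 CPM). It was not the lowest for Tlr2 (4.29 CPM), and it was the highest for Tnfrsf11a (1.63 CPM), Tlr1 (0.483 CPM) and Tlr4 (1.75 CPM). Tnf, Il1b, the Tlr genes and Cxcl2 are also expressed by macrophages. The part of the change in macrophage markers was not tested for any of these falls, including those of Icam1, Cd83 and Tnfrsf11a.

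**Figure D5:**
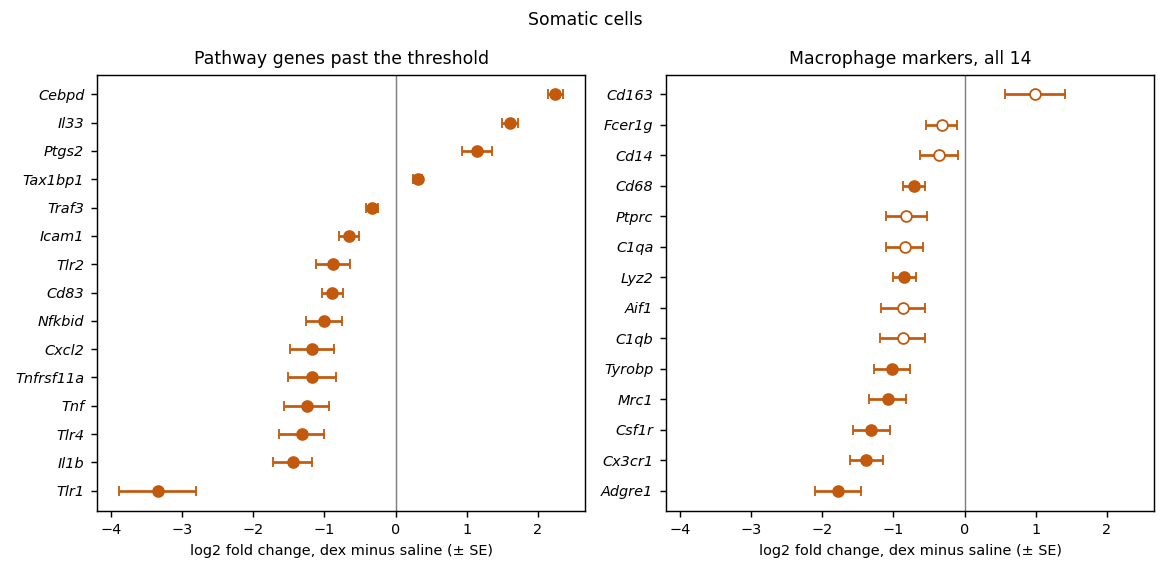
Points give the log2 fold change of dex against saline in somatic cells on the horizontal axis, with bars of 1 SE, for the 15 called genes of the 5 pathway lists (left) and for all 14 macrophage markers (right), where filled points mark an edgeR adjusted p of at most 0.05. On the left, 4 genes lie above 0 and 11 below, and on the right the filled points are 7 markers, all below 0.

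The difference between the dex responses of the cell types was called for 4 of the 93 pathway genes tested (4.3%, against 1.62% of all genes), namely Tax1bp1, Cebpd, Il1b and Ier3. The count was 2 without germ saline replicate 3 and 2 without soma saline replicate 3. Il1b measured 2.00, 1.75 and 1.77 CPM in the saline germ cell libraries against 3.82, 4.27 and 3.15 CPM in the dex ones. These groups did not overlap, the germ cell log2 fold change of 1.03 was not called on its own (edgeR adjusted p = 0.164), and the difference from soma was 2.47 (SE 0.41, edgeR adjusted p = 0.00477). Ier3, an immediate early response gene, averaged 0.592 ± 0.215 CPM in the saline germ cell libraries against 1.51 ± 0.54 CPM in the dex ones, with a difference from the somatic response of 1.45 (edgeR adjusted p = 0.0454). These germ cell levels were 6 to 14 counts after saline and 17 to 32 after dex. Soma held Ier3 at 54.4 to 63.9 CPM after saline and 47.3 to 55.8 CPM after dex. General somatic markers in germ cell libraries had medians of 0.842% to 2.26% of the somatic level. The part of carried-over somatic RNA in the Ier3 level was not tested. For Cebpd the difference was -1.75 (edgeR adjusted p = 0.000174), with log2 fold changes of 0.52 in germ cells (not called) and 2.25 in soma.

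The profiles most like those of the 2 called genes were sought among 16137 genes that averaged 1 CPM or more, by Pearson correlation of log2(CPM + 1) over the 12 libraries. For Nfkbia these were Kcna5 (r = 0.992), Agfg2 (r = 0.99) and B330016D10Rik (r = 0.99). Kcna5, a potassium channel gene, averaged 0.0385 CPM in saline germ cells, 1.47 CPM in dex germ cells, 16.2 CPM in saline soma and 19.6 CPM in dex soma. For Nfkbiz they were Bcl6b (r = 0.997), Angptl7 (r = 0.996) and Aplp1 (r = 0.995). Bcl6b, a transcriptional repressor gene, averaged 9.75 CPM in saline soma and 5.64 CPM in dex soma, and 0.157 and 0.152 CPM in the germ cell groups. The 12 points fall into 2 cell types with different levels, so these r values include that separation.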

How the data were processed

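Poly-A RNA of 12 libraries (4 groups of 3) was analysed. Per the submitters' processing notes, read pairs were aligned to mm10 with HISAT2 2.0.5 and counted with featureCounts 1.5.0-p3. The authors deposited raw counts and FPKM (fragments scaled to gene length and depth), both for single libraries. Strand setting and multi-mapped reads are not given in the sources used here. The authors' comparison tables (DESeq2 1.20.0 fold changes and p-values) were not used.

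The counts were tested with edgeR 4.0.16 in R 4.3.3 (filterByExpr, TMM scaling, quasi-likelihood F test, no covariate, Benjamini-Hochberg adjusted p of at most 0.05, no fold minimum). Each dex test used the 6 libraries of its cell type, the test of the difference all 12, and the germ against soma test the 6 saline libraries. Alternatives were DESeq2 1.42.0, RLE scaling, no low-count filter, all 12 libraries in one fit, a replicate block and leaving out each library. Depth was 14658503 to 18245507 counts, and 3 counts were taken as the floor. Replicates of a group differed more than sampling noise (chi-square over its degrees of freedom 5.95 to 24.8), so none was treated as a duplicate.

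Besides the 10 genes, the text names every pathway list gene called in a dex test, up to 6 per list and comparison by absolute fold change at a mean of at least 1 CPM in the libraries compared, 3 reference genes (Tsc22d3, Fkbp5, Per1) and the 3 genes closest in profile to each called gene. Tlr2 and the 7 called macrophage markers were named after their values were seen. The members and lists were chosen with earlier results of these data known. The replicates are labelled as biological and are pools of litters, so p-values weigh each difference against the variation between pools. The labels do not say whether same-numbered germ and somatic libraries came from the same pool, and they were not treated as paired.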

Additional observations from a re-analysis of the deposited data

Results flagged for a closer look

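For 5 genes the response to dex differed between germ cells and soma in the test of the difference itself (edgeR quasi-likelihood test, adjusted over all 19390 genes tested). The difference, germ response minus somatic response on the log2 scale, was 0.88 for Nfkbia (adjusted p = 0.000865), 2.47 for Il1b (adjusted p = 0.00477), 1.45 for Ier3 (adjusted p = 0.0454), -0.45 for Tax1bp1 (adjusted p = 0.0149) and -1.75 for Cebpd (adjusted p = 0.000174). Nfkbia and Ier3 had log2 fold changes of 0.99 and 1.34 in germ cells and of 0.097 and -0.14 in soma. Il1b and Tax1bp1 had log2 fold changes of 1.03 and -0.14 in germ cells and of -1.45 and 0.31 in soma. Of these 4 genes, Nfkbia was called in germ cells, and the germ cell changes of Ier3, Il1b and Tax1bp1 were not called (adjusted p of 0.294, 0.164 and 0.421). The germ cell libraries held only 6 to 32 counts of Ier3, and the part of carried-over somatic RNA in them was not tested.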

How the results depend on the processing

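Nfkbia was called in germ cells and in the test of the difference under every alternative run, with log2 values of 0.95 to 1.04 and 0.84 to 0.95. All 10 genes were called between saline germ cells and soma under every alternative, a comparison in which 86.1% of all genes tested were called in the reported fit. The number of the 10 genes called in soma was 2 with no low-count filter and 2 with the replicate block, and it ran from 0 to 2 when 1 library was left out. Nfkbiz was called in soma under 8 of 11 alternatives (log2 fold change -0.76 to -0.49, adjusted p of 4.54e-08 to 0.0945), and Tnfaip3 under 3 of 11 (-0.62 to -0.27, adjusted p of 0.00136 to 0.353). In the fit with the replicate block, somatic Tnfaip3 was called (edgeR adjusted p = 0.0171) and so was Nfkbiz (edgeR adjusted p = 0.000492), while Nfkbia stayed called in germ cells (edgeR adjusted p = 0.00556), and calls over all genes were 49 in germ cells, 1520 in soma and 222 for the difference, with 3 pathway list genes called for the difference in place of 4. Same-numbered dex and saline libraries correlated at 0.22, 0.002 and 0.079 in germ cells and 0.13, -0.02 and 0.06 in soma. In both cell types dex replicate 1 correlated best with saline replicate 1, but dex replicates 2 and 3 correlated best with another number. These values cannot settle whether the numbers pair the dex and saline libraries. Between same-numbered germ and somatic libraries the values were 0.083 to 0.15, and each library correlated best with its own number, a hint from the data and not from the design.

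Over all genes, calls in germ cells were 35 in the reported fit, 158 with DESeq2, 420 with no low-count filter, 64 with all 12 libraries in one fit and 17 to 81 with 1 library left out. In soma they were 1354, 803 with all 12 libraries in one fit, and 754 to 1881 with 1 library left out. For the difference they were 314, 622 with DESeq2, 727 with no low-count filter and 143 to 384 with 1 library left out. Pathway list calls were 1 in germ cells with no low-count filter, and with 1 library left out 7 to 21 in soma and 2 to 5 for the difference. The cause of these shifts was not tested.

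Sign changed only for genes that were not called, when 1 library was left out. In germ cells the log2 fold changes ran from -0.11 to 0.051 for Nfkb1, -0.34 to 0.017 for Nfkb2, -0.21 to 0.15 for Relb, -0.36 to 0.014 for Nfkbie and -0.08 to 0.14 for Nfkbiz. In soma they ran from -0.10 to 0.21 for Relb, -0.12 to 0.12 for Rel and -0.034 to 0.22 for Nfkbib. For the difference they ran from -0.22 to 0.16 for Nfkb2, -0.087 to 0.028 for Rela, -0.30 to 0.068 for Relb and -0.29 to 0.068 for Tnfaip3. With 3 pools a group, and 20 to 72 counts a library for Nfkbie and Nfkbiz in germ cells, changes of the size of these SEs were not detectable.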
